A study of Mus musculus with 2 samples.

Results

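The 32 Notch pathway genes described here comprised 4 receptors, 7 ligands, 14 effectors and 7 modifiers. The effectors were genes of the nuclear complex, the Hes and Hey genes, and Nrarp. A member counted as having a peak when it had a row in the authors' table that assigns peaks of the transcription factor POU3F1 to genes, and 9 of the 32 had one. The data came from retina of wild-type (WT) mice of the CD1 strain at embryonic day 14. Chromatin was profiled by CUT&RUN, in which an antibody directs a nuclease to the protein of interest and the released DNA is sequenced. The antibody recognised POU3F1 in 1 library and was rabbit IgG, a control without a target, in the other, so nothing could be compared between replicates. The IgG library was not analysed here by itself. The material was whole retina, a mixture of progenitors and newly formed neurons, and the cells that carry POU3F1 at a given site cannot be told apart. The peak list has no expression values, so the tissue label was not checked against marker genes.

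Notch signalling passes between touching cells. A ligand of the Delta or Jagged type on one cell binds a Notch receptor on its neighbour, the receptor is cut by proteases, and its freed intracellular domain joins the DNA-binding protein RBPJ and a Mastermind coactivator to switch on Hes and Hey genes. In the developing retina the Hes repressors hold progenitors in an undifferentiated state, while newly forming neurons carry Delta ligands that signal to them. POU3F1 belongs to the POU family, whose members bind an octamer element with the letters ATGCAAAT.

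Promoter sequences are shown first, because POU3F1 peaks covered the promoters of Hes5 and Dll1. Promoter windows came from RefSeq on GRCm38.p6, the assembly also called mm10, and hold 250 bases before and 50 after a transcription start site (TSS). Of the 32 members, 25 had 31 windows there, and peaks overlapped 2 of the 31, each over all of its 300 bases. Among all promoter windows of protein-coding genes, 0.809% (172 of 21263) were overlapped by a peak. The bases before the TSS are given 5′ to 3′ on the gene's strand. The Hes5 stretch is chr4:154960673-154960922 (plus strand), and its capitals mark both matches to GTGGGAA, a core RBPJ letter string. The Dll1 stretch is chr17:15375976-15376073 (minus strand), cut to the bases upstream of both the start used in the authors' table and the nearer of the 2 RefSeq starts; it lies inside the annotated gene, downstream of the other RefSeq start. Its capitals mark the octamer, read on the opposite strand. The Nrarp stretch, chr2:25180678-25180757 (plus strand), is shown because it too holds an octamer (in capitals) while no peak overlapped its window.
Hes5: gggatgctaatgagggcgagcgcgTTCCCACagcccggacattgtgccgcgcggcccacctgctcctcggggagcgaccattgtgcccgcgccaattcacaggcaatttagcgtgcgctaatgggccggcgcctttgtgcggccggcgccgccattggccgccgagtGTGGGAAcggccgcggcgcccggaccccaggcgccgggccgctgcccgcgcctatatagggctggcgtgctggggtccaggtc
Dll1: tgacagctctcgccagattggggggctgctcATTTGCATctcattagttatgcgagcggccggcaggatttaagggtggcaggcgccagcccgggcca
Nrarp: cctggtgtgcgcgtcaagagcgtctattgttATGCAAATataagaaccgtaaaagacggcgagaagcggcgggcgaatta

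The octamer, read as exact letters on both strands in the 250 bases before the TSS, occurred in 2 of the 31 member windows, those of Dll1 and Nrarp. It occurred in 1.58% of all 21263 windows and in 40 (23.3%) of the 172 windows overlapped by a peak. Of those 40, 12 belonged to histone genes; without histone genes the share was 20.6% (28 of 136). In the Dll1 stretch the octamer filled bases 32 to 39, and its centre was 78 bp from the peak summit. The Hes5 stretch held no exact octamer. It held ATGCTAAT at bases 4 to 11, which differs by the substitution A5T counted from the octamer's first base, 94 bp from the summit. This looser search was added after the sequence was seen. A match with at most 1 mismatch was common, in 15.03% of all windows and 47.1% of those under a peak.

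Of the other letter strings searched, GTGGGAA occurred in the windows of 4 members, Hes5, Hes7, Hey2 and Lfng, and in 5.26% of all windows. Among the 172 windows overlapped by a peak, 12 (6.98%) held it. In Hes5 both copies lay inside the peak, 73 bp to one side and 70 bp to the other side of the summit. CATNNTAAT, a spaced class III POU string, occurred in the windows of Jag1 and Notch4 (1.71% of all windows), neither of which was overlapped by a peak. ACAAT, a SOX core, occurred in 7 member windows (25.1% of all), CAGCTG, an E-box, in 7 (12.1%), and CACNAG, an N-box, in 12 (35.9%). In the printed Hes5 and Dll1 stretches no match overlapped another. All of these are matches of letters only.

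By role, 2 of 4 receptors, 1 of 7 ligands, 5 of 14 effectors and 1 of 7 modifiers had an assigned peak. Together these 9 of 32 genes made up 28.1%, against 10.2% of 21900 protein-coding genes. With peaks limited to 50 kb from the TSS, 7 members (21.9%) had a peak, against 3.67% of all protein-coding genes, and within 5 kb 3 members (Hes5, Dll1 and Notch1), against 1.4%. The members were put together as a pathway, but with earlier results of these data known, and no test was made on their share. Of 36 FGF ligands, receptors and feedback inhibitors 8 had a peak, and of 29 Wnt ligands and Frizzled receptors 2 had one; the difference from these lists was not tested.

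**Figure D1:**
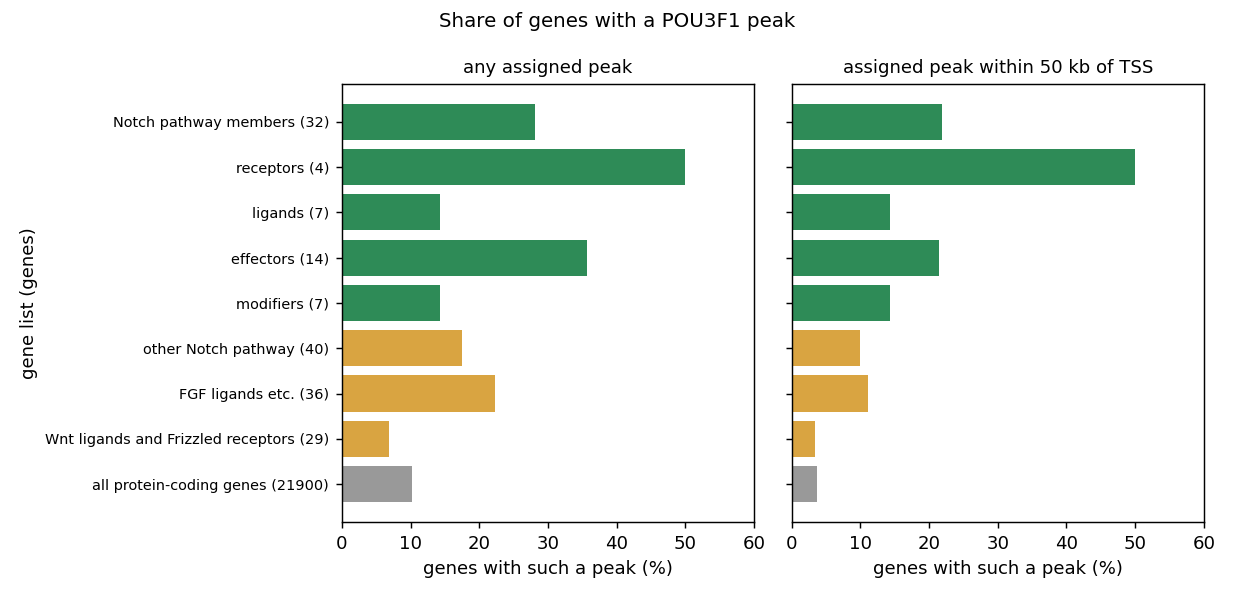
Horizontal axes give the percentage of genes with a POU3F1 peak assigned at any distance (left) or within 50 kb of the TSS (right); rows are gene lists with the number of genes in brackets. Notch pathway members (28.1% and 21.9%) stand above all protein-coding genes (10.2% and 3.67%), and each role holds few genes. Members and lists were chosen with earlier results of these data known.

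The 9 genes had 11 peaks, none shared between members, that lay nearer to start sites than most pairs in the table. Of the 11, 4 lay within 5 kb of the TSS, 5 at 5 to 50 kb, and 2 at 50 to 500 kb. Of all 4427 gene and peak pairs, 8.92% lay within 5 kb and 60.7% at 50 to 500 kb. The median fold at the summit over the local background, the authors' own value for each peak as are all folds here, was 8.02 for the 11 peaks and 6.37 for all 2652. Their median summit pileup was 29 fragments against 19 for the 2612 peaks in which it could be recovered from the deposited values. The fold adds the same constant to pileup and background, so it is smaller than their plain ratio, most clearly where the background is low.

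**Figure D2:**
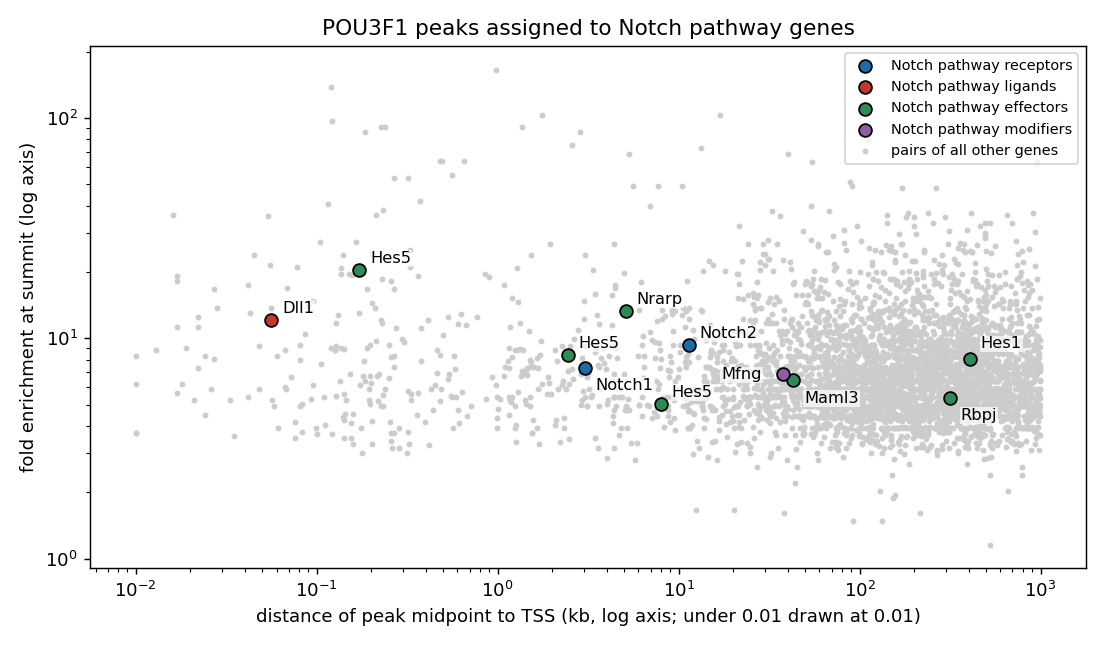
Each point is a pair of a gene and an assigned POU3F1 peak, with the distance from peak midpoint to TSS (kb) and the fold at the summit, both on log axes; coloured points are the 11 Notch pathway pairs and grey points those of all other genes. Hes5 and Dll1 lie left of 1 kb at 20.4-fold and 12.1-fold, while Hes1 and Rbpj lie beyond 300 kb at 8.02-fold and 5.33-fold.

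Hes5, a repressor gene switched on directly by Notch, had 3 peaks, among them the strongest of the 11. That peak (chr4:154960463-154961039) was 20.4-fold, ranked 109 of 2652 by fold, with its midpoint 172 bp upstream of the TSS and its summit 150 bp upstream. It held 198 fragments at the summit (95% exact Poisson interval 171 to 228, counting error only) over a local background of 8.73. The second peak (chr4:154958268-154958697) was 2441 bp upstream, 8.41-fold, with 29 fragments (19.4 to 41.6). The third (chr4:154952785-154953114) was 7974 bp upstream and weaker than most of the list, 5.004-fold with 22 fragments (13.8 to 33.3). This last peak was also assigned to Tnfrsf14, whose TSS was 24747 bp away. The fragment intervals of the 2 distal peaks overlapped, and that of the promoter peak lay above both.

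A much stronger peak lay close to Hes5 but carried another gene's name. At chr4:154962911-154964900, 1990 bp long and 91.0-fold (rank 6), it began 539 bp past the end of Hes5 and its midpoint lay 2982 bp downstream of the Hes5 TSS. The authors' table assigned it only to Pank4, a gene of the pantothenate kinase family, 228 bp upstream of that gene's TSS. The Hes5 promoter peak was assigned to both genes, 3382 bp upstream of the Pank4 TSS. Whether either peak acts on Hes5, on Pank4 or on both cannot be read from these data.

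Dll1, which encodes a Delta ligand of differentiating retinal cells, had 1 peak and was alone among the 7 ligands in having any. The peak (chr17:15375723-15376341) spanned the start site used in the table, with its midpoint 56 bp and its summit 141 bp upstream, and was assigned to no other gene. It was 12.1-fold (rank 336), with 61 fragments at the summit (46.7 to 78.4) over a background of 4.11. RefSeq lists 2 starts for Dll1, and the window of the upstream one was not overlapped by the peak.

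**Figure D3:**
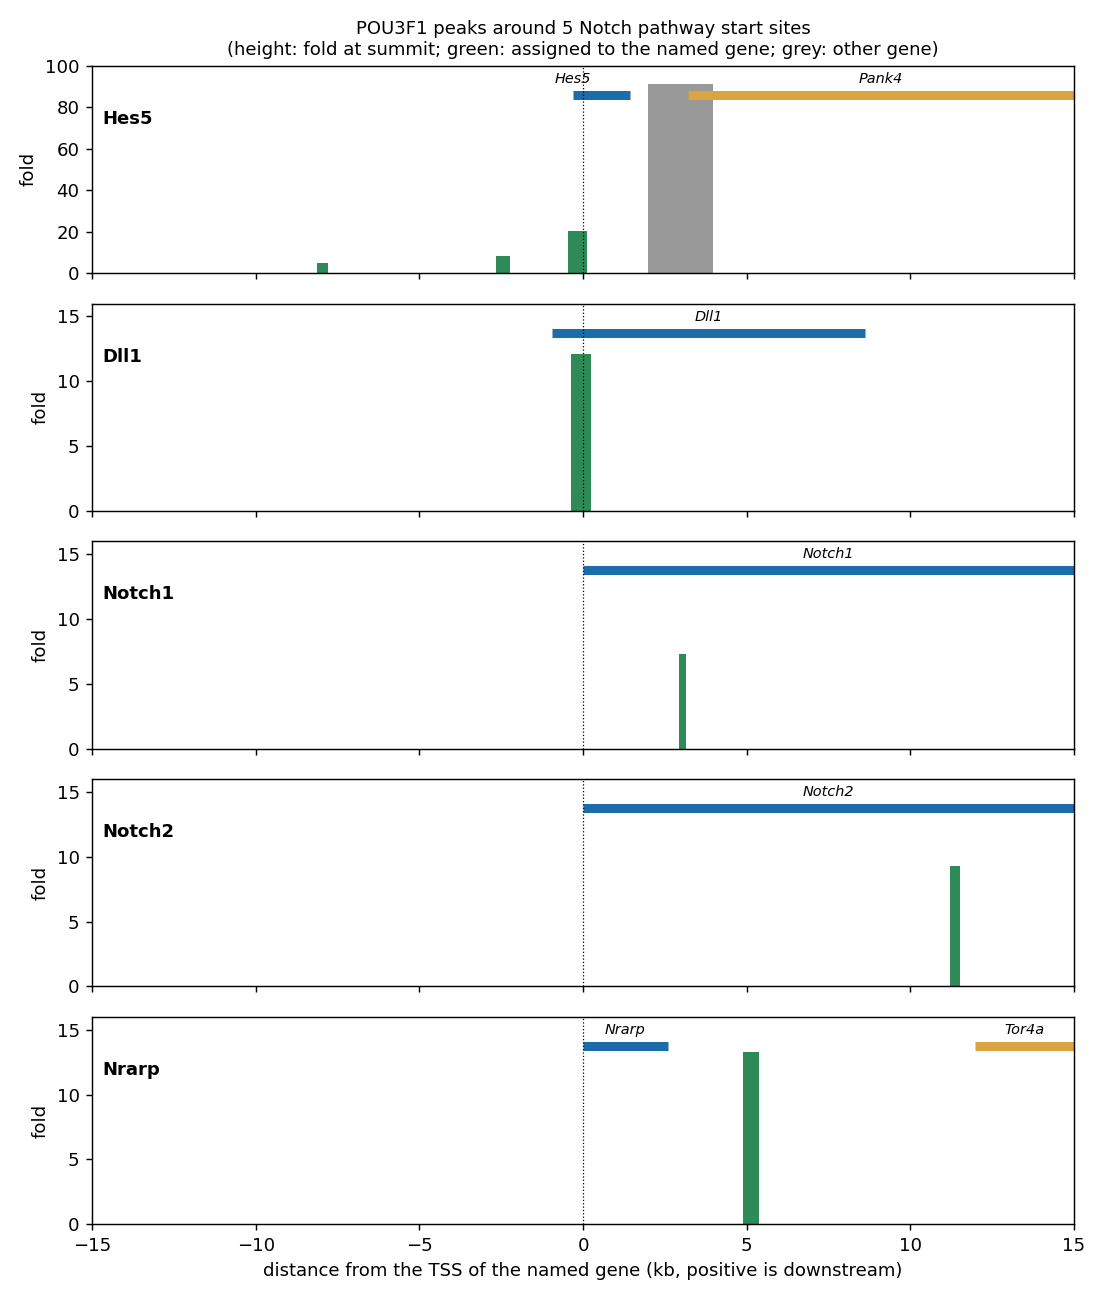
Panels show 15 kb on both sides of the TSS of Hes5, Dll1, Notch1, Notch2 and Nrarp (horizontal axis, kb, positive downstream), with bars for POU3F1 peaks whose height is the fold at the summit (vertical scale up to 100 for Hes5 and 16 for the rest) and lines above for annotated protein-coding genes. Green bars are assigned to the named gene; the grey bar of 91.0-fold beside Hes5 is assigned to Pank4.

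Among the receptors, Notch1 and Notch2 each had a single peak inside the gene body. The Notch1 peak (chr2:26500672-26500900) was 3036 bp downstream of the TSS at 7.33-fold, with 44 fragments (31.97 to 59.1). The Notch2 peak (chr3:98024758-98025045) was 11363 bp downstream at 9.33-fold, with 18 fragments (10.7 to 28.4). Fold and fragments ranked these 2 peaks in opposite order, since the local background was 5.14 fragments at Notch1 and 1.04 at Notch2. Exons and introns were not annotated in the table used. Both peaks were also assigned to a more distant neighbour, Sec16a (55570 bp) and Adam30 (135759 bp).

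Nrarp, which encodes a feedback inhibitor of Notch, had a peak of 13.3-fold at chr2:25185634-25186129, the second highest fold of the 11. It lay 5123 bp downstream of the TSS and 2295 bp past the gene's end, just outside a limit of 5 kb. Its summit held 26 fragments (17.0 to 38.1) over a background of 1.04, fewer than the 61 of Dll1 although the fold was higher. The value of 1.04 was the lowest background in the list and applied at 3 of the 11 member peaks (Nrarp, Notch2 and Mfng) and at 786 (30.1%) of the 2612 recovered ones. Tor4a shared the Nrarp peak from 11005 bp.

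Maml3, a Mastermind coactivator gene, had a peak inside its long gene body, 43008 bp downstream of the TSS (chr3:52061954-52062183, 6.50-fold). It rested on 14 fragments (7.65 to 23.5) and was shared by Mgst2, from 400889 bp. Mfng, a glycosyltransferase gene whose product modifies Notch receptors, had a peak 37606 bp downstream of its TSS (chr15:78735753-78735985, 6.88-fold) on 13 fragments (6.92 to 22.2). That peak was nearer to another gene's start, Elfn2 at 17756 bp.

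Hes1 and Rbpj were linked to peaks only across long distances, and each of these peaks lay nearer to the start site of another gene. The Hes1 peak (chr16:29657626-29658346, 8.02-fold, 40 fragments, interval 28.6 to 54.5) lay 407354 bp upstream of Hes1, a Notch target of retinal progenitors, and 78606 bp from the TSS of Opa1, a mitochondrial GTPase gene. The peak assigned to Rbpj (chr5:53275158-53275556, 5.33-fold, 29 fragments) lay 314857 bp upstream, against 8219 bp to the TSS of Smim20. Another peak (6.22-fold) lay nearer to the Rbpj gene body, 191146 bp past its end, and was assigned to Tbc1d19 and Stim2. Each peak was next given only to the nearest TSS among its assigned genes. Hes1, Rbpj and Mfng then had no peak, and 6 members remained with one. The share of all genes under that rule is not given here, so this count has no background beside it.

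**Figure D4:**
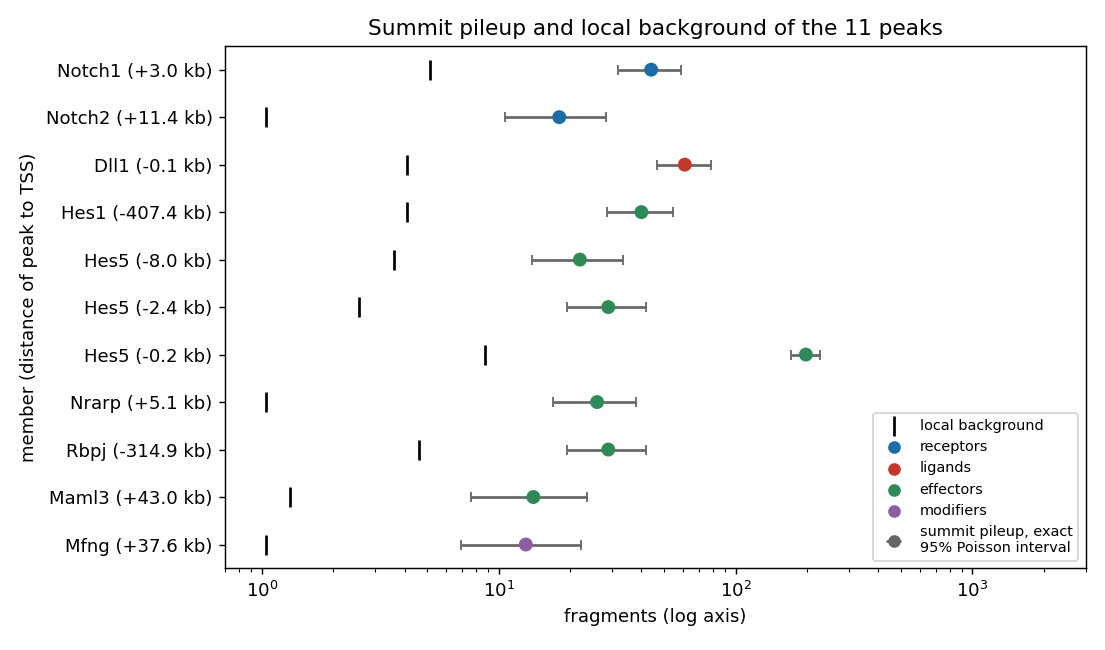
Points give the number of fragments at the summit of each of the 11 peaks with exact 95% Poisson intervals, and vertical ticks the local background, on a log axis of fragments; rows are named by member and distance to the TSS. The Hes5 promoter peak holds 198 fragments, and those of Maml3 and Mfng hold 14 and 13.

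The other 23 members had no assigned peak. Their gap from gene body to the nearest peak had a median of 809959 bp, against 723772.5 bp for 19656 protein-coding genes without one, on chromosomes that held a peak, and exceeded 500 kb in 15 of the 23 (65.2%), against 62.8%. The members' gaps were near those of other genes without a peak, and the difference was not tested. The gap was greatest at Hey2 (2385929 bp). Among the ligands without a peak, the gap was 265716 bp for Dner, 603074 bp for Jag1, 660662 bp for Dll3, 962361 bp for Dlk1, 2070096 bp for Jag2 and 2202644 bp for Dll4. Jagged genes encode the second family of canonical ligands, and Dll4 the ligand known from vessels and from early retinal neurons. Dlk1 and Dner encode ligands outside the canonical set.

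Among effectors without a peak, Hes7, the segmentation clock gene, was nearest to one (45119 bp, a peak assigned to Tmem107 and Vamp2), followed by the coactivator gene Maml2 (253869 bp) and Hes6 (344703 bp), whose product opposes Hes1. Maml1 was 873573 bp and Heyl 950277 bp away. Hey1 (1775844 bp), Hes2 (1942048 bp) and Hes3 (2068431 bp) were further than the reach of the assignment. The Hey genes encode repressors related to Hes that are best known from heart and vessels.

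Of the modifiers without a peak, the glycosyltransferase gene Lfng was 57262 bp from one (assigned to Grifin and Chst12), and its relative Rfng 809959 bp. The gap was 91115 bp for Numbl, to a peak assigned to Egln2, and 578992 bp for Numb, which encode inhibitors of the receptor. The gap of Adam10, which encodes a protease that cuts it, was 130894 bp. Mib1, which encodes the ubiquitin ligase needed for ligand activity, was 1309880 bp from its nearest peak.

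Notch4, the receptor gene best known from endothelium, had no row in the table, yet a peak of 6.96-fold with 31 fragments began 3138 bp past its end. That peak (chr17:34591681-34591926) was assigned to Pbx2, a homeodomain factor gene, 460 bp upstream of its TSS. Counting peaks over the gene body or within 5 kb of it, 7 members had one (Dll1, Hes5, Maml3, Notch1, Notch2, Notch4 and Nrarp), against 4.54% of all protein-coding genes. Notch3, the remaining receptor gene, was 1742507 bp from its nearest peak.

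**Figure D5:**
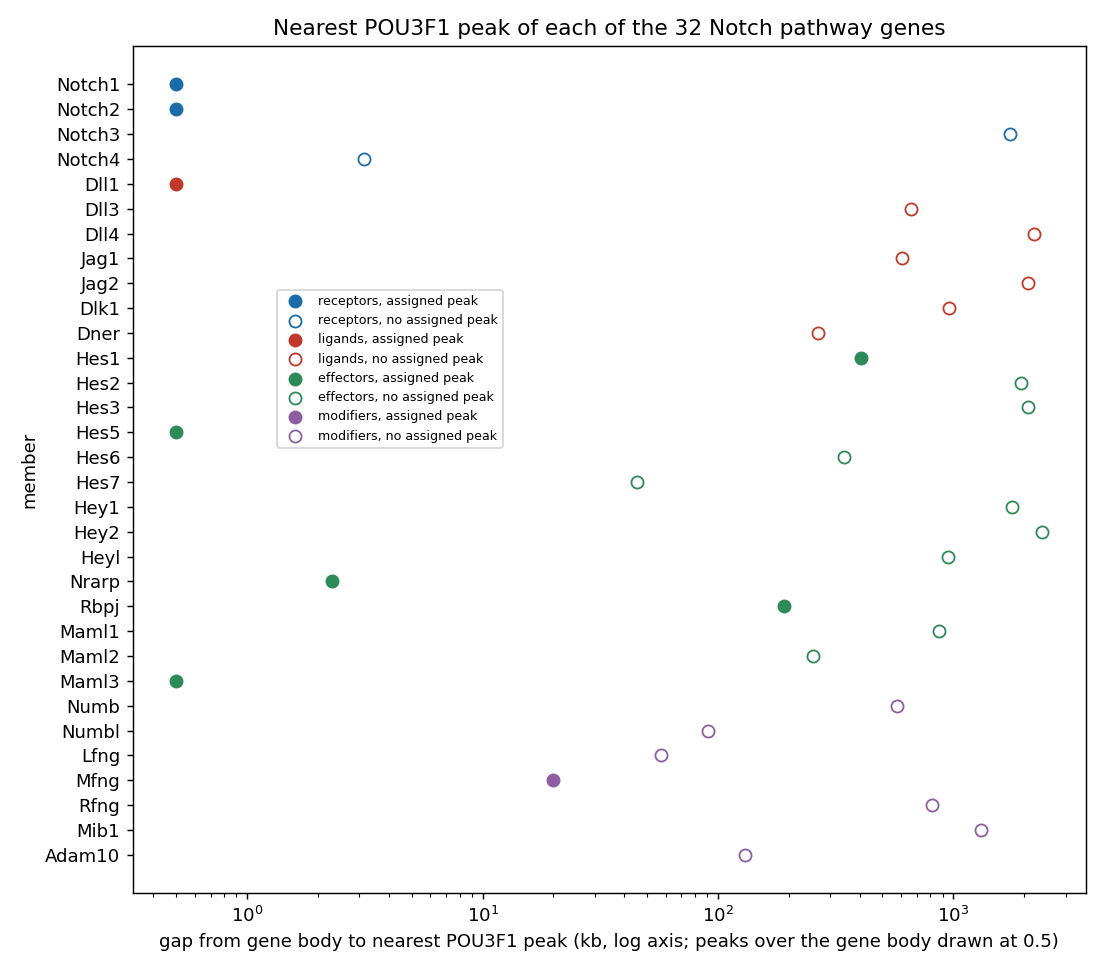
Each row is 1 of the 32 members, grouped by role, and the horizontal axis is the gap from gene body to nearest POU3F1 peak in kb on a log axis, with peaks over the gene body drawn at 0.5. Filled points are members with an assigned peak, which for Rbpj is not the nearest one, and open points have none; Notch4 is the open point nearest to a peak, at 3138 bp.

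Members with a peak had longer loci by the median, as did genes with a peak in general. Measured between the flanking protein-coding genes, their locus had a median of 193615 bp (35502 to 593250) for the 9 members with a peak and 65874 bp (14329 to 1175232) for the 23 without. Over all protein-coding genes the medians were 342278.5 bp with a peak and 69633 bp without. When all genes were split into 4 equal classes by locus length, 5 of 13 members in the class with the longest loci had a peak, beside 26.8% of all its genes. In the other classes, from the shortest loci upwards, 1 of 7, 1 of 8 and 2 of 4 members had a peak. Of all genes in those classes, 3.41%, 3.22% and 7.29% had one. The 3 peaks of Hes5 lay in a locus of 35502 bp, in the class with the shortest loci, where 3.41% of genes had a peak. Jag1 was the opposite case, with the longest locus of the 32 (1175232 bp) and no peak. The part of locus length in the members' share was not tested.

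A list of 40 further genes of the pathway, from proteases and ligases to corepressors, had 7 genes with a peak (17.5%, beside the 10.2% of all genes). The strongest peaks belonged to the Groucho-type corepressor genes Tle1 (9 peaks, strongest 27.0-fold) and Tle3 (11 peaks, 24.7-fold), to Fbxw7, a ubiquitin ligase gene for the receptor's intracellular domain (3 peaks, 19.9-fold), and to Tle4 (17 peaks, 15.7-fold). In these 4 genes the strongest peak lay 360341, 383678, 122575 and 501484 bp from the TSS in that order. Ctbp2 (8.84-fold), Chsy1 (8.13-fold) and Spen (7.86-fold), which encodes a corepressor of RBPJ, completed the set, and Tle2 and the coactivator genes Ep300 and Crebbp had no peak.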

How the data were processed

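CUT&RUN peaks were analysed from 1 POU3F1 library, beside which 1 rabbit IgG library was sequenced. The submitters' processing notes name Bowtie2, MACS2, deepTools and mm10. For each peak the authors deposited a fold (ratio), −log10 p-values and −log10 q-values, and a score that restates the q-value. Per the file headers, GREAT 4.0.4 assigned peaks to genes through gene domains reaching 5000 bp upstream and 1000 bp downstream of each TSS and extended up to 1000000 bp towards the neighbours. Library depth is unknown. Summit pileups were recovered as the whole number that gives both fold and p-value (within 0.001). The fold was taken as pileup plus 1 divided by background plus 1. Of 4427 distances, 97.0% were placed on a peak within 1 bp, using RefSeq genes and starts (GRCm38.p6); all 32 members matched by symbol. Recovery and placement were tested on simulated data. For recovery these were built with the same formulas, so that test cannot show that the deposited values follow them. Whether the IgG library set the local background is not given in the sources used here. Genes named were all members, further pathway genes with a peak, genes sharing a member's peak, and, for members without one, those of the nearest peak, given here within 100 kb. Members and lists were chosen with earlier results of these data known, and no significance test was run. Analyses used Python 3.11.15, pandas 2.3.3 and scipy 1.17.1. Alternatives were stricter q-values, shorter distances, the nearest TSS among a peak's assigned genes, and overlap with gene bodies.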

Additional observations from a re-analysis of the deposited data

How the results depend on the processing

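All 9 member genes and all 11 peaks remained at a q-value under 0.01 and under 0.001. The number of genes with a peak was 7 within 50 kb of the TSS. It was 6 with only the nearest TSS among a peak's assigned genes. Overlap with the gene body and 5 kb around it gave 7, whether 1 bp or 50% of the peak had to lie inside. Within 5 kb of the TSS the number was 3. Of all protein-coding genes, 3.67% had a peak within 50 kb, 1.4% within 5 kb and 4.54% by overlap of at least 1 bp. For the nearest TSS no such share is given. The median fold of the members' peaks was 8.41 within 50 kb, where 9 peaks lay, and 8.02 at any distance. Of the 40 genes in the further pathway list, 4 had a peak within 50 kb, beside the 3.67% of all protein-coding genes. The difference was not tested. The count was 7 at any distance or at a q-value under 0.01. With 1 library, left-out replicates could not be tried, and peaks of 13 or 14 fragments rest on little depth.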
